A study of Mus musculus with 6 samples.

Results

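The 10 genes described here encode receptors that tune T cell activation at the contact with another cell: Cd28 and its relatives Ctla4 and Icos, the checkpoint receptors Pdcd1 (PD-1), Lag3, Tigit, Havcr2 (TIM-3) and Btla, the ligand Cd200, and the activating receptor Cd226. They were chosen by symbol and were 10 of 32285 rows of a gene count table from CD4+CD25+ Tregs of mouse spleen. All 10 were among the 17307 genes that passed the filter on low counts, so no member was lost. The question was how the mRNA of these receptors differed when the zinc finger protein Zfp335 was deleted.

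RNA-seq was done on 3 WT and 3 KO libraries of the C57BL/6 strain. Per the labels, cells came from ERCre+Zfp335f/f mice (KO) and from wild-type littermates (WT). The study's methods instead describe the WT mice as carrying ERCre too. By those methods, the mice were 6 weeks of age and received tamoxifen on day 1, on day 3 and on day 5, with tissue taken on day 7, and the labels of these libraries do not mention tamoxifen. ERCre couples the Cre recombinase to an altered estrogen receptor, so that tamoxifen switches it on. It is not restricted to Tregs, so other cells of the KO mice can lose Zfp335 as well. The sources do not say whether each library came from a separate animal, so the p-values measure the spread between libraries, which may be technical.

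A T cell receptor signal is weighed together with signals from the CD28 family. CD28 and CTLA-4 bind the same ligands, CD80 and CD86. CD28 then promotes activation, while CTLA-4, which binds them more tightly, restrains it and in Tregs removes these ligands from antigen-presenting cells. ICOS binds ICOS ligand and is a usual mark of activated and effector Tregs (eTregs). The study scored eTregs by ICOS at the surface, and in part by CXCR3 and Nrp1. It sorted resting Tregs (rTregs) as cells without CD44 and ICOS, and told them from central Tregs by OX40. TIGIT and CD226 form a similar pair, an inhibitory and an activating receptor that share the ligand CD155, encoded by Pvr.

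Cd28, Ctla4 and Icos are neighbours on chromosome 1 and lie on the same strand. In the GRCm38 build, Cd28 is annotated at chr1:60716800-60773359, Ctla4 at chr1:60887000-60915832 and Icos at chr1:60977927-61000320. Each encodes a short cytoplasmic tail with a tyrosine and, 3 residues later, a methionine, which is the kind of motif that binds the lipid kinase PI3K in CD28 and ICOS. The coding sequence around this motif is shown because it is where the 3 receptors meet the signalling machinery counted further on. It was read from GENCODE M21 transcripts, with the 4 codons of the motif in capitals.
Cd28: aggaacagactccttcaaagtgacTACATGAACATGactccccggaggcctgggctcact
Ctla4: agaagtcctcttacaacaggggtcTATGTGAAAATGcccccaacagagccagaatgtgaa
Icos: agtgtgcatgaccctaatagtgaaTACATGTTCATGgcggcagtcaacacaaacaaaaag
The motif tyrosine is residue 189 of 218 in Cd28, 201 of 223 in Ctla4 and 181 of 200 in this Icos transcript. A shorter Ctla4 transcript of 174 residues does not hold the motif, and gene counts do not separate it from the longer one.

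Promoter sequence is shown for Ctla4 and Pdcd1, a member that was higher and a member that was lower in KO Tregs. Both windows are the 250 bases before the RefSeq start on the strand of the gene, chr1:60908775-60909024 on the plus strand for Ctla4 and chr1:94052554-94052803 on the minus strand for Pdcd1. The Ctla4 window lies inside the GENCODE gene, which begins with a longer upstream transcript. Capitals mark GGAAA, the core that NFAT factors recognise, which in both windows was read on the opposite strand (as TTTCC).
Ctla4 promoter: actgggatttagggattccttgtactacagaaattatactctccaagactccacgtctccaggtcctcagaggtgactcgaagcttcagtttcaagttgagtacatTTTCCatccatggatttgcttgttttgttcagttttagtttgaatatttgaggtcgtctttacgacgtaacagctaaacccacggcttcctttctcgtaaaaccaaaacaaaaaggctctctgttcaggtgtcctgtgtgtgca
Pdcd1 promoter: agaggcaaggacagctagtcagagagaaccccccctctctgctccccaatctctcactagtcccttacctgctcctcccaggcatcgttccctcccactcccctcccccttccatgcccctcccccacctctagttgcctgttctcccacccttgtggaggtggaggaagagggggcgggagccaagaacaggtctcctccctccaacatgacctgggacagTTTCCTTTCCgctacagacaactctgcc
One match lay in the Ctla4 window and 2 in the Pdcd1 window. The same core was found on either strand of 55.6% of 32851 promoter windows, so it is common and separates neither gene from most others. No match to TGANTCA (AP-1), GTAAACA (forkhead factors) or AAAGGTCA (NR4A factors) was found in either window. Those words were present in 6.75%, 3.17% and 1.34% of all windows.

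Zfp335, the targeted gene, fell from 120.1 ± 4.67 to 14.8 ± 0.451 CPM (counts scaled to a common library size; mean ± SD, n = 3 libraries a group here and in what follows). Foxp3, the lineage factor of Tregs, was at 1136 ± 17.4 CPM in WT and 1052 ± 9.24 CPM in KO libraries, and Il2ra, which encodes the CD25 used for sorting, at 480 ± 16.0 and 433 ± 5.99 CPM. Both were called lower, Foxp3 with a log2 fold change of -0.11 (adjusted p = 0.0163 by edgeR) and Il2ra with -0.15 (adjusted p = 0.00658 by edgeR). Library totals ranged from 133283969 to 209041812 counts. Xist, expressed from an inactive X chromosome, was at 0.272 ± 0.132 CPM in WT and 134.6 ± 10.4 CPM in KO libraries, while Y-linked Ddx3y was at 102.7 ± 3.88 and 78.7 ± 1.81 CPM. Of the other Y-linked genes listed, Kdm5d and Uty were also lower in KO libraries (log2 fold change -0.28 and -0.54), and Eif2s3y, at 46.6 ± 2.85 and 46.9 ± 1.46 CPM, was not called. The KO libraries thus held both Xist and Y-linked RNA, and whether they mix animals of both sexes was not tested. Whether the sex of the animals differed between groups is not in the labels, and its part in the results cannot be told apart from that of genotype. Many markers of other cells were lower in KO libraries, beside 12.1% of all genes tested. All 12 B cell markers were called lower (summed level 709 to 771 CPM in WT and 525 to 531 in KO). So were 7 of 13 myeloid and dendritic cell markers (104 to 108 CPM and 82.2 to 83.2 CPM). Of 11 markers of CD8 T, NK and red cells, 6 were called lower (66.0 to 73.4 CPM and 29.3 to 30.2 CPM). These were the red cell genes Hba-a1, Hba-a2, Hbb-bs, Hbb-bt and Alas2, and Prf1 of cytotoxic cells. The CD8 T and NK markers Cd8a, Cd8b1, Ncr1, Klrb1c and Klrk1 were not called. No marker of these 3 lists was at 0 in all libraries. Their part in the results on receptors was not tested unless a value is given.

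Ctla4 rose the most of the 10 genes in KO Tregs, followed by Lag3 and Cd28. Icos, Pdcd1, Cd200 and Cd226 were lower, by much smaller amounts. Tigit, Havcr2 and Btla were not called. A call here is an adjusted p under 0.05 by the quasi-likelihood test of edgeR, adjusted by Benjamini-Hochberg over 17307 genes, and the changes are log2 fold changes of KO against WT. Of the 10 members, 3 were called higher, where 12.0% of all genes tested were, and 4 were called lower, where 12.1% were. Over all genes that was 2082 higher and 2088 lower, and with scaling by library size only 1622 and 2575, where the 3 higher and 4 lower members were called the same way. In a fit to the 12027 genes with a mean of at least 1 CPM, 2010 were called higher and 1968 lower, a larger share. The members, all well above 1 CPM, are set beside the smaller share of all genes tested, as are the gene lists further on. The 3 genes called higher had every KO library above every WT library, as 19.3% of all genes tested did. In the 4 genes called lower every KO library was below every WT library, as in 19.1% of all genes tested. The median log2 fold change of the 10 members was -0.03, beside -0.0042 over all genes tested.

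**Figure D1:**
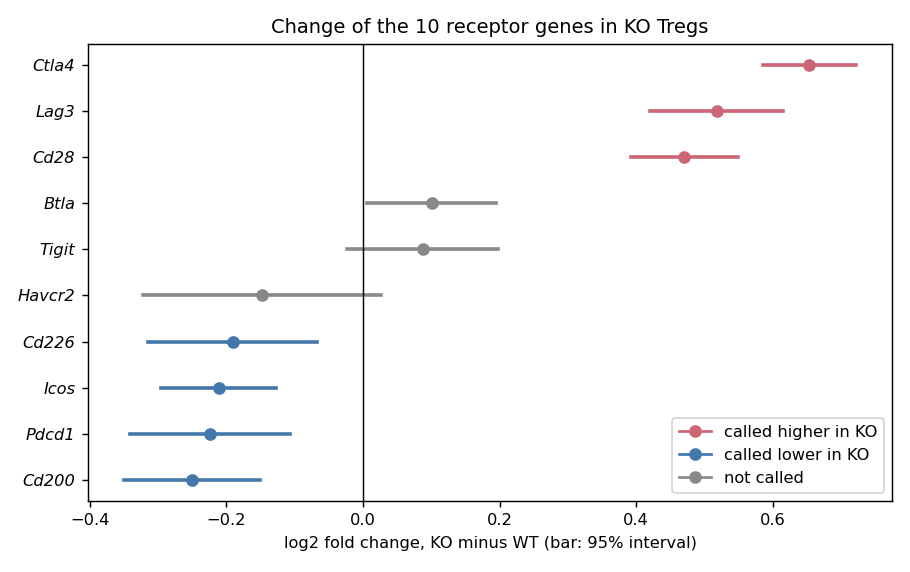
Log2 fold change of each receptor gene in KO against WT libraries (x axis), with the 95% interval as a bar and 1 gene a line, coloured by call. Ctla4 (0.65), Lag3 (0.52) and Cd28 (0.47) stand to the right of 0, and the 4 genes called lower lie between -0.25 and -0.19.

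Ctla4, the inhibitory relative of Cd28, stood at 401, 411 and 419 CPM in WT 1, WT 2 and WT 3, and at 646, 636 and 654 CPM in KO 1, KO 2 and KO 3. The groups were far apart, with both SDs near 9 CPM (9.03 in WT and 8.93 in KO). Its log2 fold change was 0.65 (SE 0.032, adjusted p = 9.56e-09 by edgeR), a level 1.57-fold higher, with a 95% interval of the log2 fold change from 0.59 to 0.72. Of the 10 genes, Ctla4 alone passed the study's own kind of cutoffs (1.5-fold, P under 0.05 and adjusted P under 0.1), which 2.58% of all genes tested passed upward and 4.37% downward. Ranked by the size of the change in either direction it was number 2279 of the 17307 genes. Ctla4 shares its span with the pseudogene Rpl18-ps1 on the same strand, which did not pass the filter on low counts.

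Cd28, the founding costimulatory receptor of the family, stood at 194, 202 and 207 CPM in the WT libraries and at 273, 274 and 288 CPM in the KO libraries. The lowest KO library was above the highest WT library. Cd28 rose by a log2 fold change of 0.47 (SE 0.036, adjusted p = 8.14e-07 by edgeR), or 1.39-fold. Icos, the third gene of the cluster, went the other way, at 257, 276 and 285 CPM in WT and 236, 233 and 237 CPM in KO libraries. Its KO libraries lay within 5 CPM of each other and below all WT libraries, of which WT 1 was the nearest. The log2 fold change of Icos was -0.21 (SE 0.039, adjusted p = 0.00152 by edgeR), which is a fall of 13.6%. Icos shares its span with the unconfirmed annotation Gm37039 on the same strand, which also did not pass the filter.

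**Figure D2:**
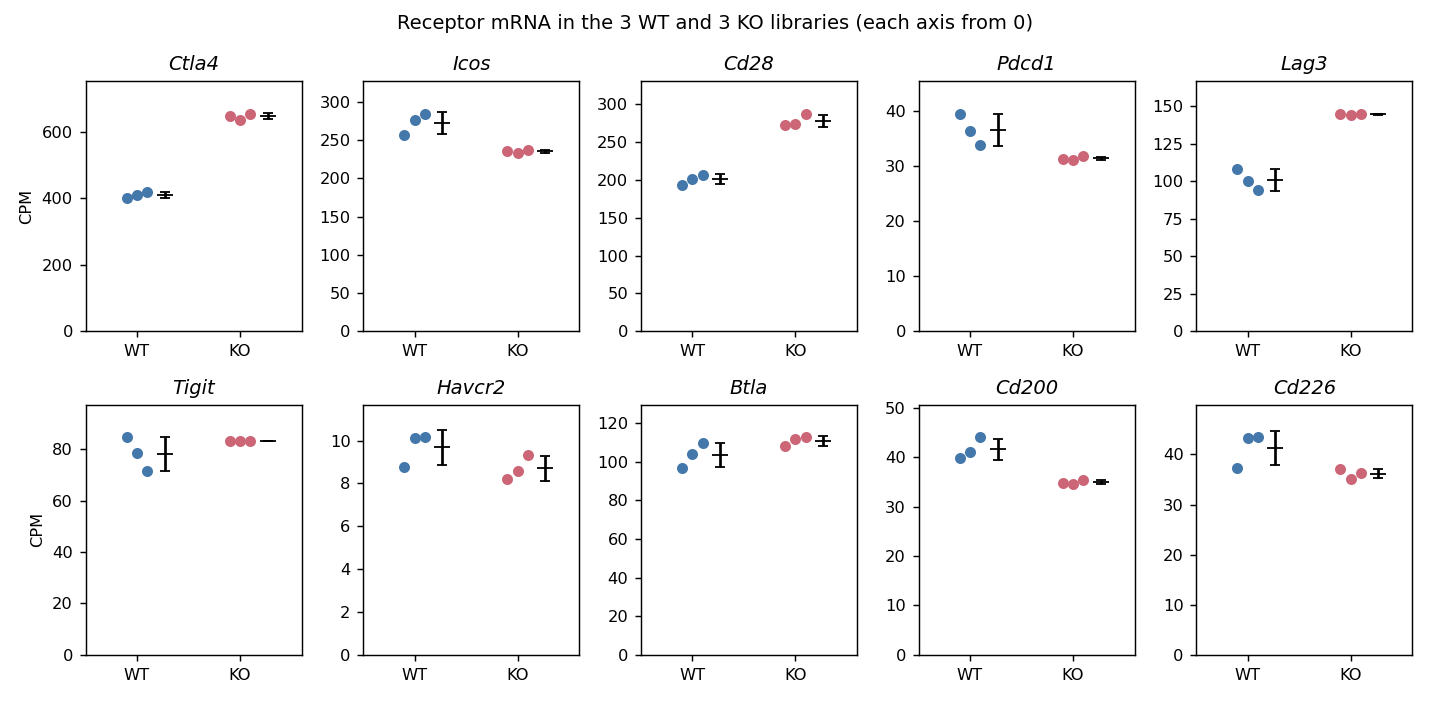
Level of each receptor gene (y axis, CPM from 0) in the 3 WT (blue) and 3 KO (red) libraries, shown as points in the order 1 to 3, with the mean and SD in black beside them. The groups are separate for Ctla4, Icos, Cd28, Pdcd1, Lag3, Cd200 and Cd226 and overlap for Tigit, Havcr2 and Btla, and relative to the mean the SD is larger in WT than in KO libraries for all 10 genes.

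Around this cluster, 27 genes are annotated with a start within 500 kb of that of Ctla4, and 7 of them were tested. Raph1, which encodes an adaptor that links Ras signals to actin, was called lower (log2 fold change -0.30, SE 0.053, adjusted p = 0.00102). Abi2, a subunit of an actin regulatory complex, had a log2 fold change of -0.13 (adjusted p = 0.177) and was not called. Between Cd28 and Ctla4, the noncoding genes 2310016D23Rik and Gm11579 were weakly expressed, at a mean of 0.288 and 1.55 CPM, and neither was called (adjusted p = 0.633 and 0.807). The chromosome segment thus held called genes of both directions, and the higher ones were Cd28 and Ctla4.

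**Figure D3:**
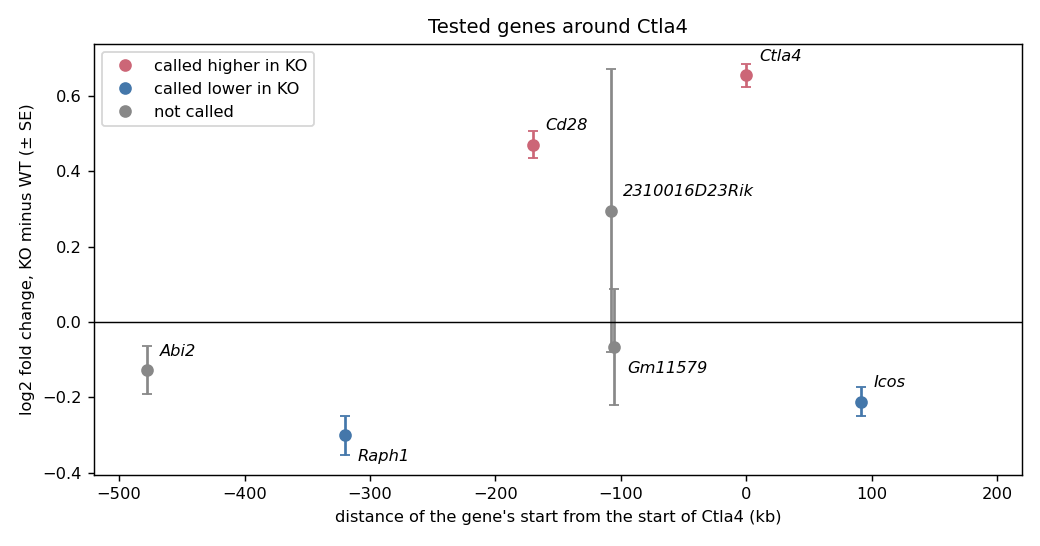
Log2 fold change of the 7 tested genes around Ctla4 (y axis, KO against WT, bars are ± SE) by the distance of their start from that of Ctla4 (x axis, kb). Cd28 and Ctla4 are above 0, Raph1 and Icos are below 0, and the bar of 2310016D23Rik is the widest.

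Ratios inside a library do not depend on how libraries are scaled to each other, and 6 of them were compared. For each count of Cd28 there were 2.04 counts of Ctla4 in WT and 2.32 in KO libraries, and 1.36 and 0.846 counts of Icos. Icos stood at 0.664 of the Ctla4 count in WT and at 0.365 in KO libraries. Against Foxp3, itself called lower in KO libraries, Ctla4 stood at 0.361 in WT and 0.614 in KO libraries, and Icos at 0.240 and 0.224. The 3 ratios within the chromosome 1 cluster and that of Ctla4 to Foxp3 did not overlap between groups, and each had p = 0.1 in an exact two-sided permutation test, the smallest p that 3 against 3 libraries allow, with a Benjamini-Hochberg value of 0.15. The Icos to Foxp3 ratio overlapped (exact permutation p = 0.3), as did that of Tigit to Cd226, which was 1.89 in WT and 2.30 in KO libraries (exact permutation p = 0.2). None of the 6 could pass a threshold of 0.05 in this design.

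**Figure D4:**
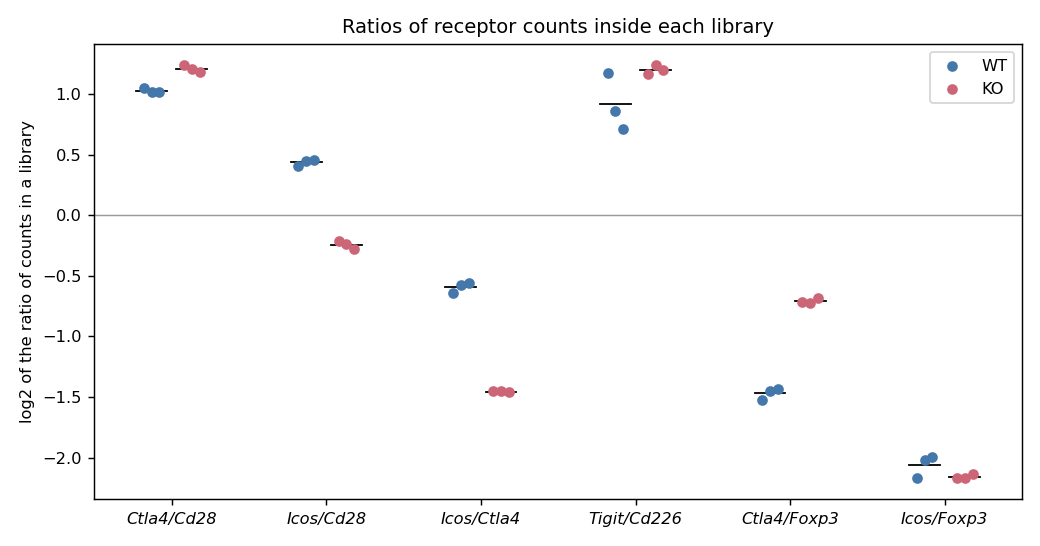
Log2 of the ratio of 2 genes' counts in a library (y axis) for the 6 ratios (x axis), with WT libraries in blue, KO libraries in red and a black line at each group's mean. Icos to Ctla4 has the widest gap between groups, from a mean of -0.59 in WT to -1.45 in KO libraries, and Tigit to Cd226 and Icos to Foxp3 overlap.

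Together the 10 genes took up 1267 to 1317 CPM in WT and 1592 to 1632 CPM in KO libraries. Ctla4 made up 31.7% of this sum in WT and 40.1% in KO libraries. The share of Icos was 21.0% and 14.6%, and that of Cd28 15.5% and 17.3%. These shares are of counts, not corrected for gene length.

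Lag3, a receptor for MHC class II that restrains T cells, stood at 108, 100.2 and 94.1 CPM in WT and 144.9, 144.4 and 144.5 CPM in KO libraries. The KO values were nearly identical, and every one was above the WT range. Lag3 rose by a log2 fold change of 0.52 (SE 0.045, adjusted p = 2.39e-06 by edgeR), or 1.43-fold with a 95% interval of 1.34 to 1.53. Pdcd1 encodes PD-1, which restrains signalling from CD28 and the T cell receptor. It was at 39.4, 36.3 and 33.7 CPM in WT and at 31.3, 31.1 and 31.7 CPM in KO libraries, so that the KO libraries were lower but WT 3 came close to them. Its log2 fold change was -0.22 (SE 0.054, adjusted p = 0.0090 by edgeR). Pdcd1 lies at chr1:94038305-94052553 and Lag3 at chr6:124904361-124911705, both on the minus strand.

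Tigit, the inhibitory receptor for CD155, was at 84.5, 78.6 and 71.3 CPM in WT and 83.1, 83.2 and 83.3 CPM in KO libraries. WT 1 was above all KO libraries, and the other WT libraries below them. The log2 fold change was 0.087 with a 95% interval of -0.023 to 0.20 (adjusted p = 0.252 by edgeR). Without WT 1 it was 0.14 and was called (adjusted p = 0.0151), and over all alternatives the adjusted p ran from 0.0151 to 0.673. Cd226, its activating counterpart, was at 37.3, 43.2 and 43.4 CPM in WT and 37.0, 35.1 and 36.3 CPM in KO libraries. WT 1 was nearly level with KO 1, and the call rested on a narrow gap. The log2 fold change of Cd226 was -0.19 (SE 0.057, adjusted p = 0.0269 by edgeR). The call was lost when any single library other than WT 1 was left out, with values between -0.21 and -0.15 and an adjusted p of up to 0.145. The adjusted p of Cd226 over all alternatives began at 0.000249.

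Havcr2, an inhibitory receptor of effector T cells and some Tregs, was the scarcest of the 10, at 8.74, 10.1 and 10.2 CPM in WT and 8.20, 8.57 and 9.35 CPM in KO libraries. WT 1 lay among the KO libraries. Its log2 fold change was -0.15 with a 95% interval of -0.32 to 0.027 (adjusted p = 0.218 by edgeR), and without WT 1 it was -0.22 and was called at an adjusted p of 0.0468, where alternatives spanned 0.0468 to 0.516. Btla, an inhibitory receptor for the TNF receptor family member encoded by Tnfrsf14, was at 96.9, 104 and 109.5 CPM in WT and 107.9, 111.9 and 112.6 CPM in KO libraries. KO 1 was below WT 3 and the other KO libraries above it. The log2 fold change of Btla was 0.10 (95% interval 0.0057 to 0.20, adjusted p = 0.121 by edgeR). Without WT 3 it was 0.14 and was called (adjusted p = 0.0211), and the adjusted p ranged from 0.0211 to 0.293 over all alternatives. Cd200, a surface ligand that restrains myeloid cells through its receptor Cd200r1, was at 39.9, 41.0 and 44.0 CPM in WT and 34.8, 34.6 and 35.4 CPM in KO libraries. The groups did not overlap, and the log2 fold change was -0.25 (SE 0.046, adjusted p = 0.00152 by edgeR). B cells also express Btla and Cd200. The B cell markers named above were lower in the same KO libraries, among them Pax5, a transcription factor of B cells (6.98 ± 0.130 CPM in WT and 1.83 ± 0.479 CPM in KO). In bulk RNA, fewer cells of a type and less RNA per cell cannot be told apart.

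Scaled by exonic length (a TPM-type value), the genes can be set in order of their level. In WT libraries Ctla4 led with 609 ± 7.06, followed by Tigit (295 ± 28.4), Icos (275 ± 11.9), Lag3 (166 ± 13.6), Cd28 (113.5 ± 2.58), Btla (105 ± 5.27), Pdcd1 (65.5 ± 5.87), Cd200 (43.3 ± 1.66), Cd226 (29.2 ± 2.23) and Havcr2 (12.3 ± 0.945). Tigit and Icos overlapped between libraries. In KO libraries Ctla4 was at 949 ± 13.5 and Tigit at 310 ± 2.16, and Icos (235.1 ± 2.46) and Lag3 (234.9 ± 0.954) were level, with overlapping libraries. The other places in the order were as in WT libraries. Exonic length was the union of annotated exons, so a gene read mostly from a short transcript is set too low on this scale.

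The genes nearest to Ctla4 in their profile over the 6 libraries, among 12024 genes compared, were Gm42047, Klf6 and Ubald2. Klf6, which encodes a zinc finger transcription factor, had a log2 fold change of 0.69. The nearest to Icos were Tug1, Ttc33 and Khdc4, with Tug1, a long noncoding RNA, at -0.21. The root mean square difference of log2 CPM from Ctla4 was 0.021 to 0.029 for its 3 genes, and that from Icos was 0.013 to 0.016 for its own. With 2 groups and 6 libraries, this likeness reflects mainly the size of the difference between KO and WT.

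Ligands of these receptors were measured in the same libraries. The list of 16 tested genes also held Cd200r1, the receptor of the ligand Cd200, which was called lower (log2 fold change -0.31). Of the 16, 2 rose (12.5%) and 5 fell (31.25%), beside 12.0% and 12.1% of all genes tested. Cd274, which encodes the PD-1 ligand PD-L1, rose from 68.3 ± 2.12 to 84.9 ± 2.27 CPM (log2 fold change 0.32), and Pvr rose from 48.5 ± 1.37 to 61.5 ± 1.16 CPM (0.34). Pdcd1lg2, which encodes the other PD-1 ligand PD-L2, was called lower, from 7.34 ± 0.226 to 5.91 ± 0.325 CPM (-0.31). Tnfrsf14, the ligand of BTLA named above, was also called lower (-0.18). Lgals3, a galectin that binds LAG-3, fell by 1.12 on the log2 scale, from 17.1 ± 1.33 to 7.85 ± 0.0944 CPM. Ceacam1, a reported partner of TIM-3, was called lower at -0.80, but its level was near 1 CPM (1.41 ± 0.437 in WT and 0.833 ± 0.121 in KO) and its groups overlapped. Cd80 was at 5.16 ± 0.913 CPM in WT and 5.01 ± 0.239 CPM in KO libraries, Cd86 at 14.1 ± 1.55 and 14.2 ± 0.595 CPM, and Icosl at 12.4 ± 0.929 and 12.4 ± 0.230 CPM, and none of these ligands of the CD28 family was called. Antigen-presenting cells are the main source of several of these ligands. Of the myeloid and dendritic cell markers given above, 7 of 13 were called lower in the same KO libraries. Their part in the ligand levels was not tested.

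Among 24 other co-signaling receptors, 5 rose (20.8%) and 6 fell (25%), beside 12.0% and 12.1% of all genes tested. Cd69, an early activation marker, rose from 218 ± 8.22 to 320.0 ± 5.70 CPM (log2 fold change 0.55). Tnfrsf4 (OX40), a costimulatory receptor of the TNF receptor family, rose from 203 ± 4.22 to 258 ± 4.53 CPM (0.34). The inhibitory receptors Lair1 (-0.54) and Pvrig (-0.32) were called lower at mean levels of at most 4.05 CPM, and the groups overlapped for Lair1.

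Downstream of the receptors, 8 of 39 signalling genes rose (20.5%) and 6 fell (15.4%), beside 12.0% and 12.1% of all genes tested. Prkch, a protein kinase C family member, rose from 408 ± 3.91 to 505 ± 2.96 CPM (log2 fold change 0.31), and Bcl10, an adaptor on the way to NF-kB, from 69.4 ± 1.34 to 85.7 ± 0.873 CPM (0.30). Pik3ap1, an adaptor of PI3K that is abundant in B cells, fell by 0.45 on the log2 scale and Pik3cg, a PI3K catalytic subunit, by 0.21. Of 17 genes for trafficking and turnover of the CTLA-4 protein, 2 rose, the endosomal Rab5a (0.21) and Swap70 (0.12), and none fell. The 11.8% that rose is near the share of all genes tested. Lrba, whose product protects CTLA-4 from lysosomal breakdown, was at 131 ± 2.80 CPM in WT and 129 ± 2.18 CPM in KO libraries and was not called (adjusted p = 0.591).

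Of 11 genes of mRNA decay that bear on Icos and Ctla4 transcripts, 4 rose (36.4%) and none fell, beside 12.0% and 12.1% of all genes tested. Zc3h12a (Regnase-1), an endonuclease that cuts T cell activation transcripts, rose from 122 ± 5.28 to 216 ± 3.95 CPM (log2 fold change 0.82, SE 0.039, adjusted p = 5.55e-09). Zfp36l1, which binds AU-rich elements, rose by 0.49 and Arid5a, which stabilises transcripts, by 0.24. Rc3h1 (Roquin-1), known for repressing Icos mRNA, rose from 94.8 ± 4.28 to 105.8 ± 3.75 CPM (0.16, adjusted p = 0.0142).

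Among 30 transcription factors tied to these receptor genes, 17 rose (56.7%) and 5 fell (16.7%), beside 12.0% and 12.1% of all genes tested. The 4 with the largest change were all higher and belong to families induced by T cell receptor signals. Fosl2, an AP-1 subunit, rose from 56.5 ± 3.83 to 150.2 ± 0.347 CPM (log2 fold change 1.41). The NR4A receptors, known to rise with antigen signalling, followed, with Nr4a2 at 0.98, Nr4a3 at 0.89 and Nr4a1 at 0.70, the last from 886 ± 47.8 to 1436 ± 39.8 CPM. Among the Treg identity genes 2 of 17 rose (11.8%, near the share of all genes tested) and 7 fell (41.2%). Of the 4 with the largest change, 3 fell. Lrrc32 (GARP), a docking receptor for latent TGF-beta, rose from 410.3 ± 20.2 to 540 ± 9.75 CPM (0.40). Itgae, the integrin chain CD103, fell from 302 ± 6.42 to 243 ± 0.612 CPM (-0.31), the G protein-coupled receptor Gpr83 from 195 ± 0.736 to 158 ± 1.74 CPM (-0.30), and Capg, an actin-capping protein, from 355 ± 14.2 to 314 ± 5.70 CPM (-0.18).

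Genes of activated and effector Tregs were mixed, with 4 of 20 higher (20%) and 8 lower (40%), beside 12.0% and 12.1% of all genes tested. Il10, an inhibitory cytokine (log2 fold change 0.93), and the chemokine receptor Ccr8 (0.62) rose, while S100a4 (-0.77) and the chemokine receptor Ccr2 (-0.67) fell. Of 12 genes of resting Tregs, 8 rose (66.7%) and 1 fell (8.33%). Ccr7, the receptor that guides T cells to lymphoid tissue, rose from 314 ± 6.06 to 592 ± 11.5 CPM (0.91), and Bach2, a transcriptional repressor, rose from 125 ± 4.14 to 147 ± 3.61 CPM (0.23). Follicular helper T cells, which express much Icos and Pdcd1, had 4 of 8 marker genes higher (50%) and 1 lower (12.5%). Cxcr4 rose from 108.8 ± 4.41 to 162 ± 4.69 CPM (0.58), and Pou2af1, which B cells express as well, fell by 0.47 on the log2 scale.

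**Figure D5:**
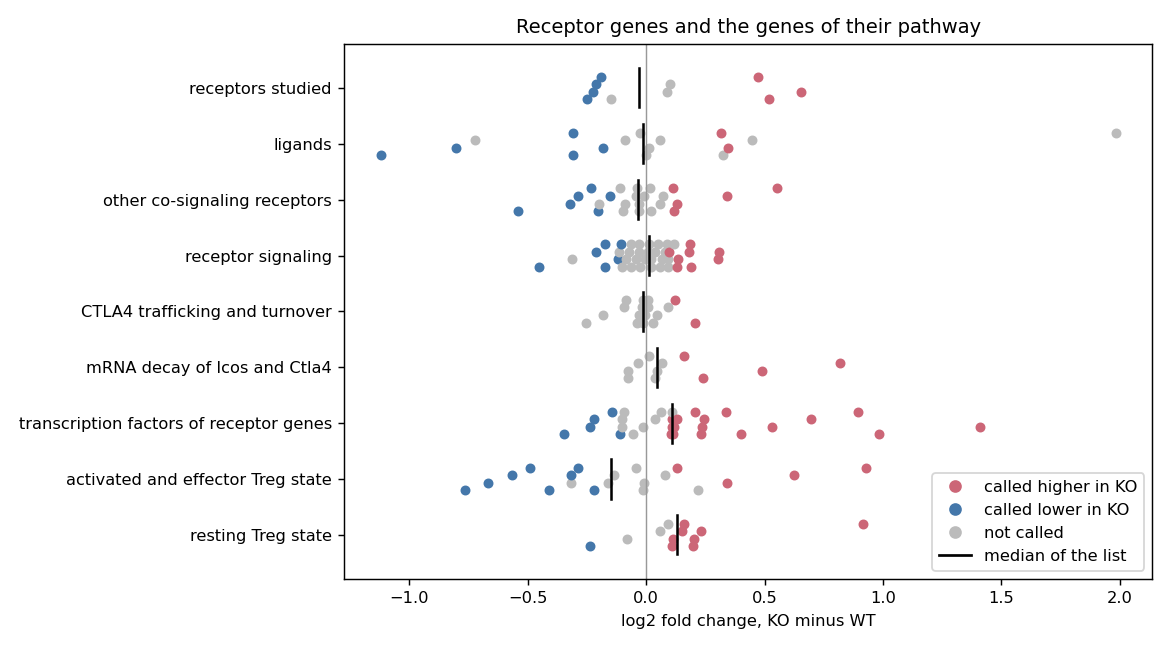
Log2 fold change (x axis, KO against WT) of each tested gene in 9 gene lists (y axis), with 1 point a gene coloured by call and a black line at the median of each list. The points of transcription factors reach furthest to the right among the genes called (Fosl2 at 1.41), and the furthest called point to the left is Lgals3 at -1.12.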

How the data were processed

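RNA-seq of sorted splenic CD4+CD25+ Tregs was analysed from the 1 table of gene counts that the authors deposited, with 3 WT and 3 KO columns matched to the labels by name (0 further columns of per-sample values). HISAT2, DESeq2 and mm10 are named in the submitters' processing notes. The counter, its annotation and its strand setting are not given in the sources used here. The deposited counts were whole numbers and were not normalized. Where a symbol stood on several rows (40 further rows), the row with the larger sum took the name and all rows stayed in the fit.

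Counts were filtered with filterByExpr, scaled by TMM and tested with edgeR 4.0.16 (quasi-likelihood, robust) in R 4.3.3, with Benjamini-Hochberg adjustment over 17307 genes and calls at an adjusted p under 0.05. CPM used TMM-scaled library sizes. Ratios of counts (0.5 added to each) were tested by an exact permutation test over libraries. No 2 libraries of a group had the same counts, and each pair differed by more than Poisson counting noise. Low counts also varied by more than independent counting gives, so a library total is not a number of independent fragments and this check cannot tell a repeated library from a separate one. The errors given are the spread between libraries.

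The members and gene lists were chosen with earlier results of these data known. Some list genes are not reported here. Named were all members, the targeted gene, Foxp3 and Il2ra, up to 4 genes of each list with the largest change among those called, the 3 genes nearest in profile to Ctla4 and to Icos, and tested genes within 500 kb of Ctla4. Cd80, Cd86, Icosl, Pdcd1lg2, Tnfrsf14, Cd200r1, Lrba and Rc3h1 were named beside them as ligands, partners or markers. The fit was tested on simulated counts with known changes. It recovered the direction of nearly all of them and most calls at 1 CPM or more, after the limit for passing had been lowered once because a stricter one was missed, and false calls there ran above the nominal rate. Alternatives were RLE, upper-quartile and library-size scaling, DESeq2 1.42.0, limma 3.58.1 (voom), the older edgeR method, other filters, other cutoffs, a pseudocount of 5, a replicate block and leaving out each library. Positions, lengths and coding sequences are from GENCODE M21 (GRCm38) and promoters from RefSeq (GRCm38.p6). Of 32245 symbols 31424 matched a length.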

Additional observations from a re-analysis of the deposited data

How the results depend on the processing

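Ctla4, Lag3, Cd28, Icos, Pdcd1 and Cd200 kept their direction and their call under all 17 alternatives. Among them Pdcd1 came closest to losing its call, with an adjusted p of 0.0466 by edgeR when KO 2 was left out. The log2 fold change of Ctla4 ranged from 0.62 to 0.67, that of Cd28 from 0.44 to 0.49, that of Lag3 from 0.47 to 0.57, that of Icos from -0.25 to -0.18, that of Pdcd1 from -0.27 to -0.17 and that of Cd200 from -0.28 to -0.21. Leaving out 1 library gave 0.64 to 0.67 for Ctla4, 0.029 to 0.14 for Tigit, -0.22 to -0.11 for Havcr2, 0.054 to 0.14 for Btla and -0.26 to -0.15 for Cd226. It gave 3 to 4 members called higher and 3 to 5 called lower. With the study's cutoffs 1 member was called higher and 0 lower. limma with a variance for each group, added after seeing that WT libraries spread more than KO libraries, left 3 members higher and 4 lower. With a replicate block, 3 members were called higher and 4 lower, Ctla4 had a log2 fold change of 0.65, and 2143 of all genes were called higher and 2084 lower. Same-numbered WT and KO libraries did not visibly deviate together (correlations 0.019, -0.030 and -0.0017). Such small correlations cannot exclude a pairing whose effect is small beside other variation, so whether the numbers pair the libraries stays unknown.

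The lists moved more. Scaling by library size only gave 2 other co-signaling receptors, 4 signalling genes, 0 trafficking genes, 11 transcription factors and 1 Treg identity gene called higher, and 1 trafficking gene, 1 mRNA decay gene, 2 resting state genes and 2 follicular helper markers called lower. It also moved the calls over all genes to 1622 higher and 2575 lower, from 2082 and 2088. Upper-quartile factors gave 3 other co-signaling receptors and 1 Treg identity gene called higher, with 1809 genes higher and 2303 lower in all. Leaving out the mitochondrial, ribosomal protein, haemoglobin and immunoglobulin genes left 2 of the CD8 T, NK and red cell markers called lower, since haemoglobin genes belong to that list. With 1 library left out, the genes called higher numbered 2 to 6 for other co-signaling receptors, 4 to 12 for signalling, 0 to 3 for trafficking, 11 to 18 for transcription factors, 1 to 3 for Treg identity and 5 to 9 for the resting state. The genes called lower numbered 2 to 5 for ligands, 3 to 6 for other co-signaling receptors, 2 to 7 for signalling, 0 to 3 for trafficking, 0 to 1 for mRNA decay, 3 to 7 for transcription factors and 3 to 8 for Treg identity. Over all genes the calls fell to 1341 higher and 1399 lower without WT 2 and rose to 2495 and 2501 without WT 1. The cause was not tested. The log2 ratios within libraries, recomputed with a pseudocount of 5, kept their direction.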
